A study of Danio rerio with 15 samples.

Results

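The genes described here are the 100 whose transcript levels in the zebrafish fin were lower at every sampled time after amputation than at the day of amputation. They were chosen from the measured values, by a score equal to the mean at 0 days post amputation (dpa) minus the highest of the means at 4, 7, 14 and 21 dpa, on a log2(TPM + 1) scale. TPM, or transcript abundance, is a read count corrected for transcript length and set to a fixed total in each library, and it was scaled here between libraries by the median of ratios. Of 14836 genes, 4848 had a mean of at least 5 scaled TPM, 1749 of those had a positive score, and the 100 largest scores, 0.76 to 1.95, were taken. The median score was 0.93 in the 100 genes and -0.15 over the 4848 genes.

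The study sampled bulk RNA from regenerating fins of wild-type zebrafish, and the series title concerns Erk signalling and the memory of skeletal size. Each library came from a pool of 10 fish, from a piece of fin reaching 1 bone segment to either side of the cut, so that after amputation the piece holds stump and regrown tissue. There were 3 libraries at each of 4, 7, 14 and 21 dpa and 3 libraries at 0 dpa. All 15 carried the wild-type genotype, the labels name no treatment beside amputation, and the series design text gives 3.5 dpa for the group the sample labels call 4 dpa. Because libraries were made from whole pieces of tissue, fewer cells of a type and less RNA per cell cannot be told apart in any value below.

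A zebrafish fin is a fold of layered epidermis over bony rays, with fibroblasts, vessels, nerves, pigment cells and immune cells between them. After a cut, epidermis covers the stump, a proliferating blastema forms beneath it, and ray and skin are rebuilt over weeks. Uninjured fish skin also houses resident immune cells. In mammals, chemokines such as CCL19 and CCL25, small secreted proteins that guide leukocytes, position lymphocytes in tissues, and major histocompatibility complex (MHC) proteins display peptides to T cells. Several of the 100 genes belong to these families, others to the epithelium, and a further group to mitochondria and ribosomes.

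Some libraries stood apart, and this bears on the results that follow. Library 0 dpa replicate 1 was the highest of the 3 libraries at 0 dpa for 91 of the 100 genes, against 53.6% of the 4848 genes. Its level was a median of 2.18 times the mean of 0 dpa replicates 2 and 3 in the 100 genes and 1.15 times over the 4848 genes. Among the later libraries, 7 dpa replicate 3 was the highest for 56 of the 100 genes. A transcript annotated as ribosomal RNA took 2.26% of the deposited TPM in 0 dpa replicate 1, 9.23% in 7 dpa replicate 3 and up to 71.6% in 4 dpa replicate 3. It took 9.00% in 4 dpa replicate 2 and 36.1% in 0 dpa replicate 3. The median level of the 100 genes was 1.76, 0.44, -0.34, -0.06 and 0.79 in these libraries, in the order named. Those levels are in log2 units relative to the mean of all libraries. The part of the ribosomal RNA share in the results was not tested. Libraries were divided into sets A and B, a number fixed in advance, by how many near-equal ratios of values they shared. Set A held every 0 dpa and 4 dpa library plus replicates 1 and 3 of 7 dpa. Set B held replicate 2 of 7 dpa plus every 14 dpa and 21 dpa library. Pairs shared 24 to 688 such ratios within sets and 12 to 35 between sets, so the ranges overlapped. For 0 dpa replicate 3 the median was 33 with its own set and 24 with the other. The labels name no batch. All 0 dpa libraries lie in one set and all 14 and 21 dpa libraries in the other, and 7 dpa, with 1 library in set B, is the time that spans both, so a fit with the set as a covariate separates set from time by the 7 dpa libraries. The step of 4 against 0 dpa lies within set A and that of 21 against 14 dpa within set B.

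Marker genes of the tissue were present at every time. The summed level of the 4 epidermal markers krt4, krt5, cldne and epcam was 3564 to 5027 scaled TPM at 4 dpa, 4752 to 5727 at 7 dpa, 4184 to 4333 at 14 dpa and 4051 to 5233 at 21 dpa, against 5583 to 6447 at 0 dpa. None of these 4 was at 0 in any library. Osteoblast and fibroblast markers were also detected in all 15 libraries. The 4 fibroblast markers summed to 476 to 555 TPM at 4 dpa and 485 to 540 at 7 dpa. They stood at 331 to 424 at 14 dpa and 397 to 539 at 21 dpa, against 226 to 266 at 0 dpa. Most of this sum was col1a2, with means of 145 TPM at 0 dpa and 362 at 4 dpa. That gene is also on the osteoblast and osteocyte list below. The 3 measured osteoblast markers summed to 1285 to 2160 TPM at 4 dpa and 3532 to 11317 at 7 dpa. They stood at 5465 to 7176 at 14 dpa and 4099 to 7290 at 21 dpa, against 2107 to 7489 at 0 dpa. Most of this sum was bglap, with means of 3844 TPM at 0 dpa and 1415 at 4 dpa. The marker col10a1a went the other way, with means of 89.5 TPM at 0 dpa and 324 at 4 dpa. The sum therefore does not stand for osteoblast markers as a class. The part of these shifts in the levels of the 100 genes was not tested.

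By the way they were chosen, all 100 genes stood below their 0 dpa level at each time. The median log2 difference from 0 dpa was -1.17 at 4 dpa and -1.08 at 7 dpa, and it was -1.24 at 14 dpa and -1.44 at 21 dpa. Over the 4848 genes the same medians were -0.10, -0.15, -0.15 and -0.19, and the choice of the 100 genes set this gap in advance. On the linear scale the median gene stood at 44.4%, 47.2%, 42.4% and 36.9% of its 0 dpa level at 4, 7, 14 and 21 dpa, as read from log2(TPM + 1). The lowest of the later means was at 21 dpa for 53 genes, at 4 dpa for 22, at 14 dpa for 16 and at 7 dpa for 9. Over the 4848 genes it was at 21 dpa for 1635, at 4 dpa for 1431, at 14 dpa for 977 and at 7 dpa for 805. The highest of the later means was at 14 dpa for 35 genes, at 7 dpa for 33, at 4 dpa for 24 and at 21 dpa for 8. Over the 4848 genes it was at 14 dpa for 1093, at 7 dpa for 816, at 4 dpa for 1890 and at 21 dpa for 1049. Levels at 0 dpa spanned a wide range, with a median of 96.2 TPM, and 16 genes averaged over 1000 TPM. No gene of the 100 was at 0 in any library.

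For 51 of the 100 genes all 12 later libraries lay below all 3 libraries at 0 dpa. Over the 4848 genes this held for 4.27%, but the choice of the 100 genes used this very contrast. In the other 49 genes at least 1 later library reached into the 0 dpa range. For 18 of those 49, 7 dpa replicate 3 was the only library that did so, and leaving it out gave 69 genes without overlap.

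**Figure D1:**
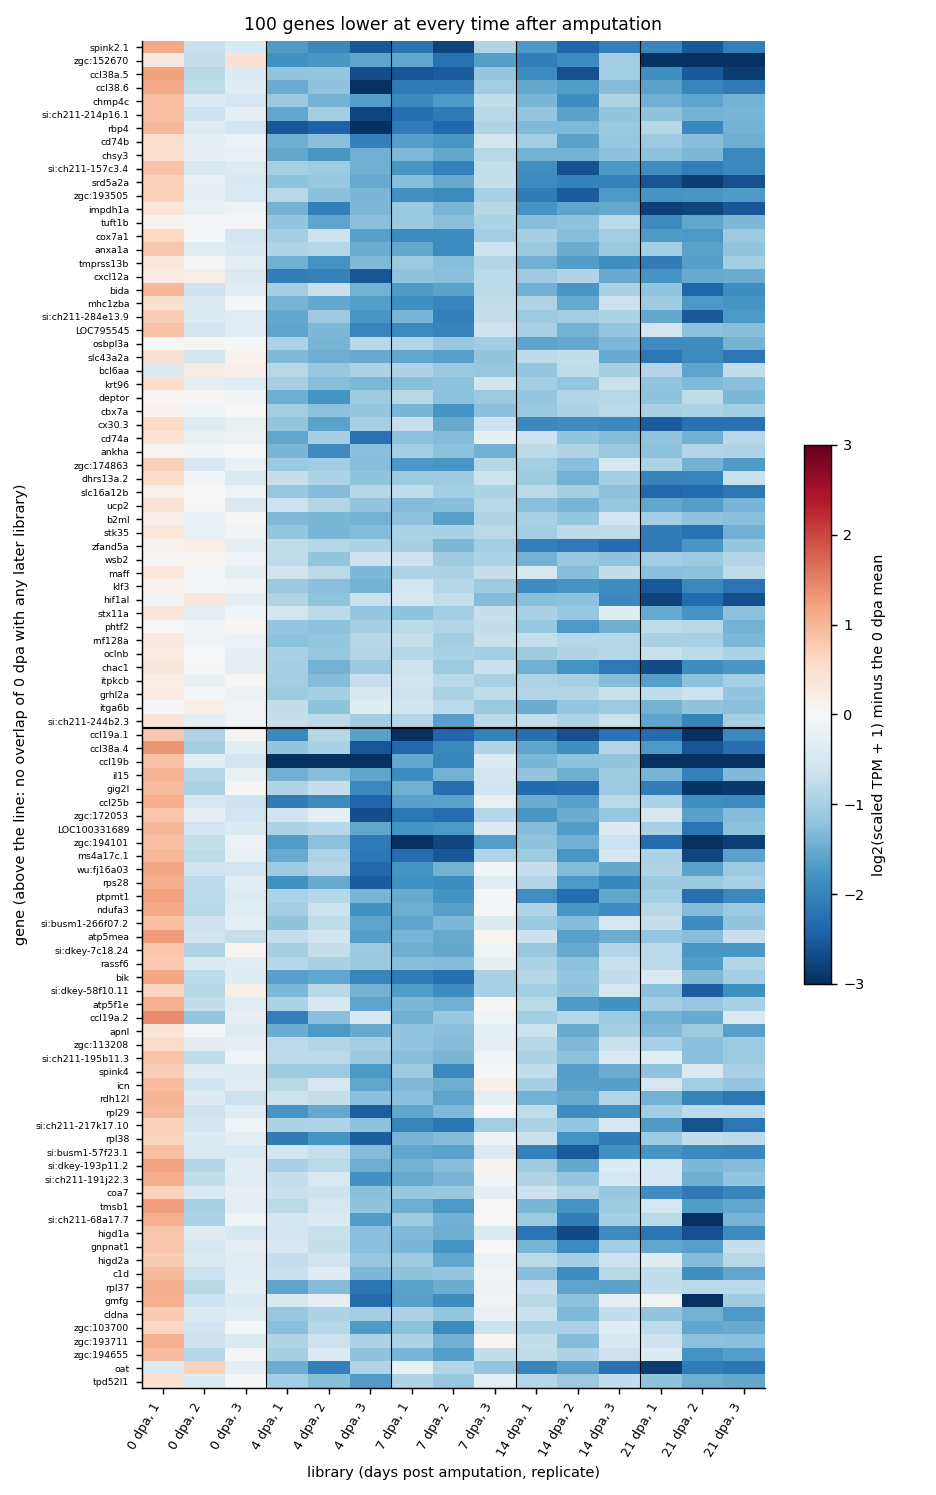
Log2(scaled TPM + 1) minus the 0 dpa mean for each of the 100 genes (down the page) in each of the 15 libraries (across, by days post amputation and replicate). Genes above the black line are the 51 in which no later library reached the 0 dpa range, and the column of 0 dpa replicate 1 is the reddest of the 3 at 0 dpa. Column 7 dpa replicate 3, the highest later library for 37 of the 49 genes below the line, is the palest of the later columns there.

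The gene with the largest score was spink2.1, a member of the Kazal family of serine protease inhibitors. Its levels were 589, 167 and 196 TPM at 0 dpa, 82.4, 69.6 and 44.2 at 4 dpa, 58.0, 38.5 and 144 at 7 dpa, 80.3, 50.1 and 63.6 at 14 dpa, and 67.8, 45.2 and 64.0 at 21 dpa. Every later library lay below every 0 dpa library, although 7 dpa replicate 3 came within reach of 0 dpa replicate 2. The log2 differences from 0 dpa were -2.07 at 4 dpa and -1.95 at 7 dpa, with -2.06 at 14 dpa and -2.19 at 21 dpa. Another Kazal inhibitor gene, spink4, was less abundant, at 2.06 to 10.22 TPM in the 12 later libraries, against 8.07 to 18.7 TPM at 0 dpa, and overlapped through 7 dpa replicate 3.

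The gene with the next score, zgc:152670, is protein coding with no descriptive name in the files. It had 25.1, 12.3 and 27.9 TPM at 0 dpa, 5.13, 5.38 and 6.19 at 4 dpa, 6.33, 3.60 and 5.82 at 7 dpa, 4.15, 4.77 and 9.55 at 14 dpa, and 1.76, 1.38 and 1.44 at 21 dpa. Its levels did not overlap, and the 21 dpa libraries stood below all others.

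Chemokine and cytokine genes gave 9 of the 100 genes, 6 of them among the 15 largest scores. They were ccl38a.5, ccl38.6, ccl38a.4, ccl19a.1, ccl19a.2, ccl19b, ccl25b, cxcl12a and il15, and their scores ran from 0.90 to 1.66. This and the other role groups below were put together after the members were known. Of the 20 ccl and cxcl genes with a mean of at least 5 TPM, 11 had a positive score and 8 were among the 100. The median log2 difference of the 9 genes was -1.66 at 4 dpa and -1.30 at 7 dpa, with -1.31 at 14 dpa and -1.90 at 21 dpa.

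The ccl38 genes are CC chemokines whose receptors are not named here. ccl38a.5 had 168, 40.3 and 54.8 TPM at 0 dpa, 31.1, 31.9 and 10.6 at 4 dpa, 11.1, 11.9 and 31.5 at 7 dpa, 18.6, 10.8 and 34.4 at 14 dpa, and 19.4, 11.6 and 9.08 at 21 dpa. All 12 later libraries were below the lowest 0 dpa library. The neighbouring gene ccl38.6 had 10.6 to 44.1 TPM in the 12 later libraries, against 53.1 to 201 TPM at 0 dpa, again without overlap. ccl38a.4, the most abundant of the 3, had 36.7 to 124 TPM in the 12 later libraries, against 113 to 572 TPM at 0 dpa. There 4 dpa replicate 2, 7 dpa replicate 3 and 14 dpa replicate 3 reached the level of 0 dpa replicate 2.

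In mammals CCL19 binds the receptor CCR7 and guides T cells and dendritic cells to lymphoid tissue. ccl19a.1 had 236, 71.8 and 143 TPM at 0 dpa, 34.2, 74.3 and 42.8 at 4 dpa, 14.8, 25.1 and 32.0 at 7 dpa, 27.1, 20.9 and 28.05 at 14 dpa, and 26.1, 10.7 and 34.5 at 21 dpa. Only 4 dpa replicate 2 reached the lowest 0 dpa library. Its neighbour ccl19a.2 had 54.3 to 208 TPM in the 12 later libraries, against 101 to 615 TPM at 0 dpa, and 7 of the 12 later libraries reached 0 dpa replicate 2. The third gene, ccl19b, followed another course among the later times and had 403, 173 and 147 TPM at 0 dpa, 14.6, 17.2 and 16.1 at 4 dpa, 74.5, 55.6 and 163 at 7 dpa, 83.1, 93.5 and 95.8 at 14 dpa, and 25.4, 22.8 and 24.3 at 21 dpa. It was lowest at 4 and 21 dpa, intermediate at 7 and 14 dpa and highest at 0 dpa, with 7 dpa replicate 3 alone inside the 0 dpa range.

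CCL25 in mammals is a chemokine of thymus and gut that binds CCR9. ccl25b had 1861, 624 and 569 TPM at 0 dpa, 202, 232 and 168 at 4 dpa, 279, 288 and 749.7 at 7 dpa, 310.4, 281 and 499 at 14 dpa, and 454, 242 and 235 at 21 dpa. The 4, 14 and 21 dpa libraries were all below 0 dpa, while 7 dpa replicate 3 was above 0 dpa replicates 2 and 3. cxcl12a encodes a ligand of Cxcr4 that steers migrating cells. It had 227, 216 and 142 TPM at 0 dpa, 44.4, 46.5 and 30.7 at 4 dpa, 82.9, 79.8 and 109.5 at 7 dpa, 89.7, 102 and 66.5 at 14 dpa, and 54.9, 66.4 and 67.6 at 21 dpa. No later library reached 0 dpa, and unlike most of these genes its 0 dpa replicates 1 and 2 were alike. il15, whose mammalian protein sustains natural killer and memory T cells, had 16.3 to 47.0 TPM in the 12 later libraries, against 37.9 to 143 TPM at 0 dpa, with overlap only through 7 dpa replicate 3.

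**Figure D2:**
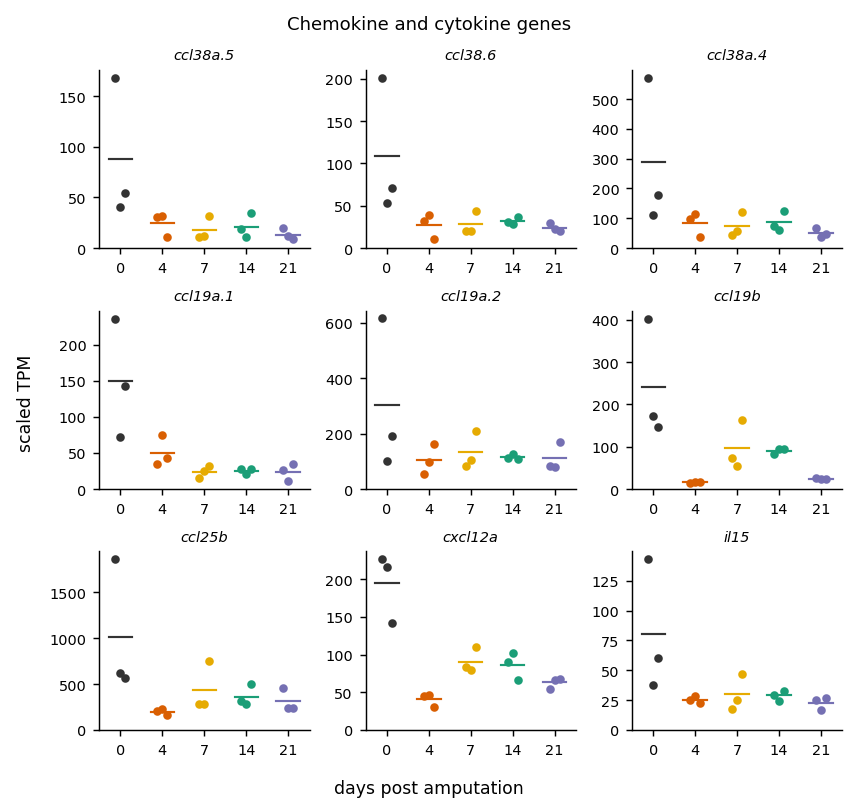
Scaled TPM of the 9 chemokine and cytokine genes (vertical axes from 0) against days post amputation, with 1 point per library and a bar at the mean of the 3 libraries. In every panel the highest point is 0 dpa replicate 1, drawn leftmost, and ccl19b shows means of 16.0 TPM at 4 dpa and 24.2 TPM at 21 dpa beneath 97.7 TPM at 7 dpa and 90.8 TPM at 14 dpa.

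Of the 18 other tested genes on a list of chemokine, lymphocyte and antigen presentation genes, 6 fell and 1 rose at 4 dpa relative to 0 dpa (limma with Benjamini-Hochberg adjustment over 10163 genes, adjusted p under 0.05). Over all genes tested, 7.39% fell and 8.04% rose in that comparison. Those that fell were the chemokine gene ccl27b (log2 -1.29), the chemokine receptor gene ccr7 (-0.91), the cytokine receptor genes il7r (-1.16) and il2rb (-0.88) and the T cell kinase genes lck (-0.91) and zap70 (-0.66). The gene that rose was the chemokine receptor cxcr4a (0.66). At 7 dpa 1 gene fell, il7r (-1.16), where 2.47% of all genes fell and 2.53% rose. At 14 dpa 1 rose and 1 fell, against 4.60% and 5.64%, and at 21 dpa 2 rose and 1 fell, against 6.32% and 7.38%. cxcr4a, a receptor for Cxcl12 proteins, was among those that rose at 14 and 21 dpa, with log2 differences of 1.503 and 2.09. All of these comparisons share their 0 dpa libraries with the choice of the 100 genes.

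The summed level of the T cell markers lck, zap70, cd4-1 and il7r, all 4 detected in every library, was 9.51 to 14.4 TPM at 4 dpa, 10.19 to 16.0 at 7 dpa, 23.8 to 30.5 at 14 dpa and 16.5 to 18.7 at 21 dpa, against 22.9 to 32.1 at 0 dpa. The 4, 7 and 21 dpa libraries were below all 0 dpa libraries and the 14 dpa libraries were within their range. The macrophage markers mpeg1.1 and csf1ra, 2 of 3 in the table, summed to 14.8 to 44.3 TPM at 4 dpa, 30.5 to 39.9 at 7 dpa, 30.32 to 32.0 at 14 dpa and 29.1 to 30.1 at 21 dpa, against 28.1 to 31.1 at 0 dpa. csf1ra, with means of 8.94 TPM at 0 dpa and 12.1 at 4 dpa, is also on the iridophore and xanthophore list, so the sum may not stand for macrophages alone. The part of T cells and macrophages in the levels of the chemokine and antigen presentation genes was not tested.

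A further 5 of the 100 genes serve antigen presentation, and 4 of them did not overlap between the later libraries and 0 dpa. Among all 100 genes 51 did not overlap, and among the 4848 genes 4.27%. The choice of the 100 used this contrast, so counts without overlap by role are descriptions. cd74a and cd74b encode the invariant chain that escorts MHC class II proteins. cd74b had 1509, 882 and 967 TPM at 0 dpa, 394, 458 and 261 at 4 dpa, 347, 323 and 738 at 7 dpa, 529, 356 and 496 at 14 dpa, and 511, 448 and 392 at 21 dpa. All later libraries were below 0 dpa, with 7 dpa replicate 3 the highest of them, and the log2 differences were -1.59 at 4 dpa and -1.32 at 7 dpa, with -1.26 at 14 dpa and -1.28 at 21 dpa. cd74a was more abundant, at 2175 to 8445 TPM in the 12 later libraries, against 8838 to 13647 TPM at 0 dpa, also with no overlap.

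The class I gene mhc1zba had 459, 245 and 313 TPM at 0 dpa, 125, 112 and 102.8 at 4 dpa, 91.6, 81.8 and 195 at 7 dpa, 175, 114 and 208 at 14 dpa, and 157, 98.3 and 95.9 at 21 dpa. Its later libraries were all below 0 dpa. b2ml encodes a light chain of the class I complex and had 108 to 229 TPM in the 12 later libraries, against 297 to 378 TPM at 0 dpa, without overlap, and 0 dpa replicate 1 stood at 1.17 times the mean of the other 0 dpa libraries. The class II gene zgc:103700, named mhc2dhb in RefSeq, had 52.6 to 151 TPM in the 12 later libraries, against 133 to 309 TPM at 0 dpa, and overlapped through 14 dpa replicate 3. The paralogous light-chain gene b2m is not among the 100. It fell at 4 dpa (log2 -1.40) and at 7 dpa (-1.26), with values of -0.74 at 14 dpa and -0.78 at 21 dpa that did not pass the test.

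Epithelial genes made up 9 of the 100. Of these, 7 did not overlap, beside 51 of all 100 genes: krt96, oclnb, grhl2a, itga6b, tmprss13b, cx30.3 and anxa1a. krt96, a keratin gene of the intermediate filament network, had 444, 256 and 242 TPM at 0 dpa, 150.1, 125 and 118 at 4 dpa, 125, 127 and 207 at 7 dpa, 145, 135 and 189.6 at 14 dpa, and 133, 121 and 126 at 21 dpa. Each later library was below each 0 dpa library. The integrin gene itga6b, whose alpha 6 chain anchors basal epithelial cells to the basement membrane, had 139.8, 164 and 136 TPM at 0 dpa, 87.8, 62.3 and 113 at 4 dpa, 96.9, 83.2 and 66.8 at 7 dpa, 51.0, 65.0 and 68.4 at 14 dpa, and 54.3, 62.6 and 60.2 at 21 dpa. Its 3 libraries at 0 dpa were alike, and its means were lowest at 14 and 21 dpa.

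The tight junction gene oclnb, an occludin, had 15.5 to 22.0 TPM in the 12 later libraries, against 29.8 to 41.3 TPM at 0 dpa, and the grainyhead factor gene grhl2a, a regulator of epithelial identity, had 9.25 to 15.7 TPM in the 12 later libraries, against 19.7 to 26.6 TPM at 0 dpa. tmprss13b, a membrane-bound serine protease gene, had 16.0 to 38.7 TPM in the 12 later libraries, against 59.3 to 90.7 TPM at 0 dpa, and anxa1a, which encodes a calcium-dependent membrane-binding annexin, had 366 to 891 TPM in the 12 later libraries, against 990.2 to 2413 TPM at 0 dpa. None of these 4 overlapped. cx30.3 encodes a connexin, a subunit of gap junctions, and had 19.8, 9.87 and 11.0 TPM at 0 dpa, 5.18, 3.58 and 5.94 at 4 dpa, 7.68, 3.86 and 7.96 at 7 dpa, 2.63, 2.76 and 2.63 at 14 dpa, and 1.46, 1.96 and 1.96 at 21 dpa. Its levels were lower at 14 and 21 dpa than at 4 and 7 dpa.

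The claudin gene cldna, a tight junction component, had 48.8 to 139.7 TPM in the 12 later libraries, against 119.8 to 277 TPM at 0 dpa and overlapped through 7 dpa replicate 3. icn, an S100-family gene, was the most abundant of the 100 genes, with 93186, 32411 and 38969 TPM at 0 dpa, 27624, 34722 and 16684 at 4 dpa, 19654, 17861 and 54683 at 7 dpa, 24581, 15766 and 15496 at 14 dpa, and 34028, 24174 and 21775 at 21 dpa. It was high in 0 dpa replicate 1, where it took 6.16% of the deposited TPM, and 4 dpa replicate 2, 7 dpa replicate 3 and 21 dpa replicate 1 reached 0 dpa replicate 2. Of the 21 other tested genes on the epidermal keratin and junction list, 3 rose and 4 fell at 4 dpa, 2 rose at 7 dpa, 5 fell at 14 dpa and 5 fell at 21 dpa, each relative to 0 dpa. Those that rose at 4 dpa were the keratin genes krt17 (log2 1.59), krt93 (2.52) and krt94 (2.36), and krt91 (-1.07) and krt97 (-0.96) were among those that fell. Of the 12 keratin genes with a mean of at least 5 TPM, 5 had a positive score, and krt96 was the 1 among the 100. On the list of mucous and ion-transporting epidermal cell genes, icn was the 1 member. Of 9 others 1 rose and 1 fell at 4 dpa, 1 rose at 7 dpa, and 1 rose and 2 fell at each of 14 and 21 dpa. Shares of all genes tested that rose and fell were 8.04% and 7.39% at 4 dpa and 2.53% and 2.47% at 7 dpa. They were 4.60% and 5.64% at 14 dpa and 6.32% and 7.38% at 21 dpa.

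Genes of retinoid and steroid metabolism gave 4 members, of which 3 did not overlap, beside 51 of all 100 genes. rbp4 encodes a carrier of retinol and had 10523, 4099.8 and 3654 TPM at 0 dpa, 918, 998 and 692 at 4 dpa, 1265, 1060.3 and 2902 at 7 dpa, 2164, 2114 and 2483 at 14 dpa, and 3044, 1423 and 2030.5 at 21 dpa. It was lowest at 4 dpa and did not overlap 0 dpa at any time. srd5a2a encodes a steroid 5-alpha reductase and had 1181, 630.3 and 528 TPM at 0 dpa, 318, 331 and 258 at 4 dpa, 301, 257 and 453 at 7 dpa, 195, 179 and 179 at 14 dpa, and 121, 100.2 and 118 at 21 dpa. Its levels at 14 and 21 dpa were below those at 4 and 7 dpa, and all were below 0 dpa. The dehydrogenase gene dhrs13a.2 had 161 to 418 TPM in the 12 later libraries, against 480.3 to 937 TPM at 0 dpa, without overlap. Another, rdh12l, had 10.8 to 42.6 TPM in the 12 later libraries, against 33.2 to 107 TPM at 0 dpa, and overlapped through 7 dpa replicate 3.

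**Figure D3:**
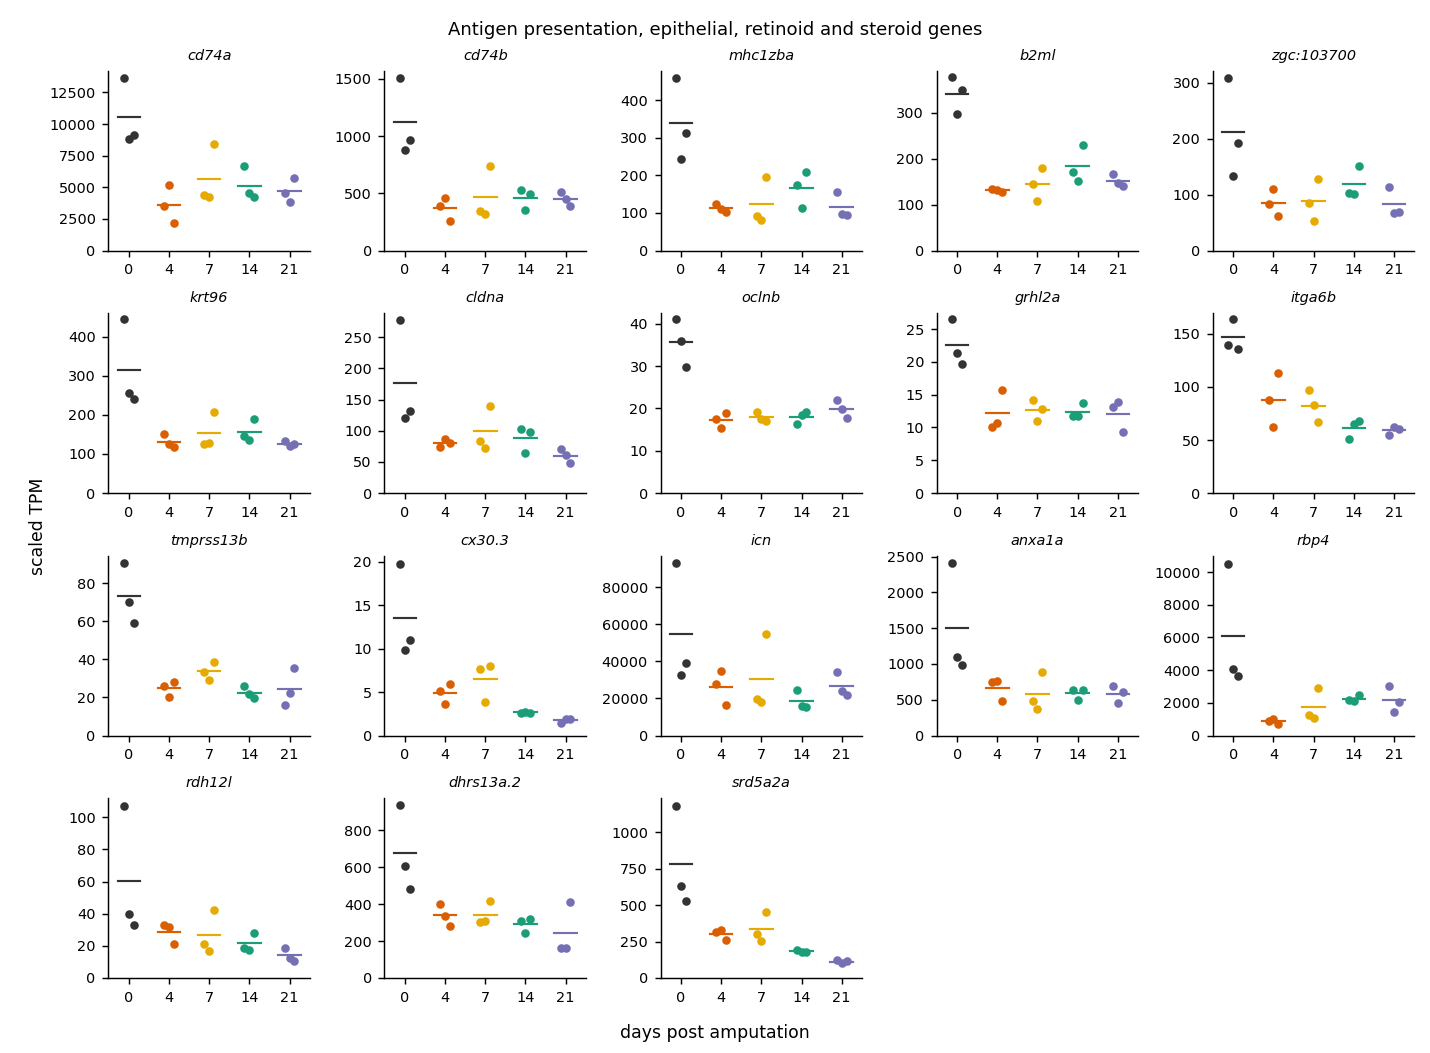
Scaled TPM of the 5 antigen presentation, 9 epithelial and 4 retinoid and steroid genes (vertical axes from 0) against days post amputation, with 1 point per library and a bar at the mean of 3. The later points lie below the 0 dpa points in 14 of the 18 panels, the exceptions being zgc:103700, cldna, icn and rdh12l.

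The 4 genes grouped here under transcription and chromatin, bcl6aa, maff, klf3 and cbx7a, did not overlap, beside 51 of all 100 genes. In them replicate 1 at 0 dpa stood at 0.656 to 1.42 times the mean of the other 2 libraries. bcl6aa, a transcriptional repressor gene, had 12.4, 19.5 and 18.3 TPM at 0 dpa, 8.85, 6.94 and 8.07 at 4 dpa, 8.19, 7.01 and 6.94 at 7 dpa, 6.84, 9.31 and 7.70 at 14 dpa, and 8.51, 4.79 and 9.37 at 21 dpa. Every 0 dpa library was above every later one, and replicate 1 was the lowest at 0 dpa. cbx7a encodes a Polycomb protein that binds methylated histone, and it had 2.88 to 6.51 TPM in the 12 later libraries, against 11.1 to 13.5 TPM at 0 dpa. maff, a small Maf factor gene, had 8.39 to 15.7 TPM in the 12 later libraries, against 18.8 to 28.9 TPM at 0 dpa. maff was the 1 member on the immediate early list. Of that list's 26 other tested genes 2 fell at 4 dpa, 2 fell at 14 dpa, and 11 rose and 1 fell at 21 dpa. Among all genes tested, 7.39% fell at 4 dpa, 5.64% fell at 14 dpa, and 6.32% rose and 7.38% fell at 21 dpa.

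Other members without overlap included chmp4c, an ESCRT-III membrane-scission gene, with 21.4 to 50.0 TPM in the 12 later libraries, against 59.3 to 157 TPM at 0 dpa, and chsy3, a chondroitin sulfate synthase gene, with 15.5 to 34.6 TPM in the 12 later libraries, against 52.0 to 87.1 TPM at 0 dpa. The lncRNA gene si:ch211-214p16.1 had 55.1 to 213 TPM in the 12 later libraries, against 243 to 710.0 TPM at 0 dpa, and the protein-coding gene si:ch211-157c3.4 had 80.9 to 300.1 TPM in the 12 later libraries, against 363 to 909 TPM at 0 dpa. gig2l, of a fish gene family induced by virus and interferon, overlapped, with 113, 30.0 and 60.8 TPM at 0 dpa, 31.3, 36.3 and 14.7 at 4 dpa, 21.1, 11.54 and 39.1 at 7 dpa, 10.9, 11.3 and 27.45 at 14 dpa, and 13.2, 6.89 and 7.07 at 21 dpa. Its means declined in order over the 4 later times, and 4 dpa replicates 1 and 2 and 7 dpa replicate 3 reached 0 dpa replicate 2. On an interferon response list that holds none of the 100 genes, 19 genes were tested. Of these, 3 fell at 4 dpa and 1 at 7 dpa, with 4 at 14 dpa and 7 at 21 dpa. The background of genes that fell, over all tested, was 7.39% and 2.47% for the first 2 of these times. It was 5.64% and 7.38% for 14 and 21 dpa.

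Genes grouped under mitochondrial respiration gave 9 members and overlapped in 7 of them, beside 49 of all 100 genes. They encode subunits of complex I (ndufa3), complex IV (cox7a1) and ATP synthase (atp5mea and atp5f1e), assembly factors (coa7 and si:ch211-68a17.7, named uqcc6 in RefSeq), the hypoxia-inducible domain proteins higd1a and higd2a, and the carrier ucp2. atp5f1e had 1911, 551 and 729.9 TPM at 0 dpa, 472, 653 and 305 at 4 dpa, 361, 337 and 938 at 7 dpa, 525, 284 and 258 at 14 dpa, and 451, 416 and 467 at 21 dpa. 0 dpa replicate 1 was far above all others, and 4 dpa replicate 2 and 7 dpa replicate 3 reached 0 dpa replicate 2. atp5mea had 42.7 to 144 TPM in the 12 later libraries, against 83.7 to 332 TPM at 0 dpa, and higd2a had 25.7 to 68.5 TPM in the 12 later libraries, against 57.2 to 132 TPM at 0 dpa. In both, 0 dpa replicate 1 was again the highest library. ucp2, with 171 to 345 TPM in the 12 later libraries, against 400.2 to 719.7 TPM at 0 dpa, and cox7a1, with 4.67 to 12.6 TPM in the 12 later libraries, against 13.1 to 31.0 TPM at 0 dpa, did not overlap. Of 81 genes with a mean of at least 5 TPM and a name stem of respiratory chain or ATP synthase subunits, 43 had a positive score. Among the 100 were 4 of them. These genes were picked by name stem alone, which can also take in genes that encode no subunit.

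Cytosolic ribosomal protein genes gave 4 members, rps28, rpl29, rpl37 and rpl38, none of them without overlap, beside 51 of all 100 genes. rps28 had 21945, 5999 and 8333 TPM at 0 dpa, 2945, 3599 and 1825 at 4 dpa, 2905, 2824 and 8315 at 7 dpa, 5618, 3113 and 2666 at 14 dpa, and 4747, 4774 and 5215 at 21 dpa. 0 dpa replicate 1 was the highest library, and 7 dpa replicate 3 alone of the later libraries reached 0 dpa replicate 2. rpl29 had 892 to 4821 TPM in the 12 later libraries, against 3242 to 9826 TPM at 0 dpa, rpl37 had 2154 to 8907 TPM in the 12 later libraries, against 5565 to 20948 TPM at 0 dpa and rpl38 had 1009 to 4997 TPM in the 12 later libraries, against 4268 to 8795 TPM at 0 dpa. Of 79 genes picked by the ribosomal protein name stems rpl and rps alone, 73 had a positive score. In them 0 dpa replicate 1 stood at a median of 2.28 times the mean of the other 0 dpa libraries. The median log2 difference of these 79 genes was -0.96 at 4 dpa and -0.92 at 7 dpa, with -0.59 at 14 dpa and -0.35 at 21 dpa.

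The BH3-only cell death genes bida and bik had 4.99 to 18.8 TPM in the 12 later libraries, against 19.5 to 61.3 TPM at 0 dpa for bida, without overlap, and 21.9 to 80.2 TPM in the 12 later libraries, against 63.1 to 245 TPM at 0 dpa for bik, with it. Neither was kept when 0 dpa replicate 1 was left out of the rule.

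The other 52 genes were placed in no role group here. Their scores ran from 0.76 to 1.67, and 26 of them did not overlap, a share near the 51 of all 100 genes. In these 52 genes 0 dpa replicate 1 stood at a median of 2.09 times the mean of the other 0 dpa libraries. Some were even across the 0 dpa libraries. osbpl3a, of the oxysterol-binding protein family, had 84.5, 91.0 and 83.5 TPM at 0 dpa, 44.0, 32.1 and 48.1 at 4 dpa, 46.5, 39.0 and 41.4 at 7 dpa, 28.03, 28.9 and 33.4 at 14 dpa, and 22.7, 22.9 and 31.7 at 21 dpa. Its 0 dpa libraries were all above the later ones, and its means were lowest at 14 and 21 dpa. deptor, which encodes an inhibitor of the mTOR kinase, had 6.19 to 13.6 TPM in the 12 later libraries, against 22.2 to 24.8 TPM at 0 dpa, and tuft1b, a tuftelin gene, had 5.65 to 13.6 TPM in the 12 later libraries, against 23.0 to 25.9 TPM at 0 dpa, both without overlap. oat encodes ornithine aminotransferase and had 14.5, 32.6 and 16.4 TPM at 0 dpa, 6.47, 3.99 and 10.202 at 4 dpa, 16.5, 10.4 and 8.20 at 7 dpa, 4.27, 5.70 and 3.40 at 14 dpa, and 1.88, 3.89 and 3.61 at 21 dpa. In oat, 0 dpa replicate 1 was the lowest at 0 dpa, and 7 dpa replicate 1 was the later library that reached it.

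Further members without overlap were the inositol trisphosphate kinase gene itpkcb, at 24.2 to 51.4 TPM in the 12 later libraries, against 67.2 to 89.2 TPM at 0 dpa, the ubiquitin ligase gene rnf128a, at 12.5 to 20.5 TPM in the 12 later libraries, against 29.5 to 40.4 TPM at 0 dpa, and the syntaxin gene stx11a, at 10.5 to 30.1 TPM in the 12 later libraries, against 32.1 to 49.7 TPM at 0 dpa. slc43a2a, of an amino acid transporter family, had 4.31 to 13.4 TPM in the 12 later libraries, against 15.4 to 31.7 TPM at 0 dpa, and chac1, a gene of glutathione breakdown, had 137 to 571 TPM in the 12 later libraries, against 736 to 1122 TPM at 0 dpa. Each of these 5 genes was kept without 0 dpa replicate 1. Others stood out at 0 dpa mainly in replicate 1. The thymosin beta gene tmsb1, whose family binds actin monomers, had 17836, 3812 and 6251 TPM at 0 dpa, 4288, 5288 and 3250.4 at 4 dpa, 2731, 2294 and 7503 at 7 dpa, 2907, 2176 and 3578 at 14 dpa, and 5247, 2344 and 2570.3 at 21 dpa. The lncRNA gene si:dkey-193p11.2 had 3418 to 10717 TPM in the 12 later libraries, against 5336 to 22608 TPM at 0 dpa, ptpmt1, a mitochondrial phosphatase gene, had 11.46 to 59.3 TPM in the 12 later libraries, against 34.6 to 145 TPM at 0 dpa, and gmfg, of an actin-regulating family, had 3.69 to 47.1 TPM in the 12 later libraries, against 31.8 to 107 TPM at 0 dpa. These 4 overlapped, and none of them was kept without that library.

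Differences among the later times were also tested. The score took the highest of the 4 later means, so the choice used these libraries too and the counts are not free of it. A moderated F test over 4, 7, 14 and 21 dpa called 18 of the 100 genes, against 20.1% of the 10163 genes tested, a share near the background. With the library set as a covariate it called 5 of the 100, and the share of all genes called in that fit is not given here. The same holds for most alternative fits below, so their counts are no result about the 100 genes. The 18 were slc16a12b, ccl19b, klf3, impdh1a, hif1al, zfand5a, srd5a2a, cx30.3, zgc:152670, stk35, cxcl12a, chac1, higd1a, oat, coa7, osbpl3a, zgc:194101 and slc43a2a.

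From 4 to 7 dpa the 2 genes called, ccl19b and cxcl12a, both rose, against 1.15% of all genes that rose. ccl19b had 74.5, 55.6 and 163 TPM at 7 dpa, against 14.6, 17.2 and 16.1 TPM at 4 dpa, without overlap (log2 difference 2.39, SE 0.37, adjusted p = 0.00179, limma). The call was kept whichever library was left out, with adjusted p of 0.000244 to 0.0169. cxcl12a had 82.9, 79.8 and 109.5 TPM at 7 dpa, against 44.4, 46.5 and 30.7 TPM at 4 dpa, also without overlap (log2 difference 1.15, SE 0.25, adjusted p = 0.0183, limma). Its call was lost without 4 dpa replicate 1, 4 dpa replicate 3, 7 dpa replicate 1 or 7 dpa replicate 3, with adjusted p of 0.0147 to 0.0662 over all 15 omissions, and within library set A the adjusted p was 0.164.

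From 7 to 14 dpa klf3 and zfand5a fell, and 1.88% of all genes fell. klf3, a Krüppel-like repressor gene, had 12.7, 13.6 and 12.7 TPM at 14 dpa, against 32.6, 26.3 and 22.7 TPM at 7 dpa (log2 difference -0.996, SE 0.19, adjusted p = 0.0103, limma), and its call was lost without 7 dpa replicate 1. zfand5a, an AN1-type zinc finger gene, had 16.3, 15.4 and 13.6 TPM at 14 dpa, against 35.3, 27.29 and 34.5 TPM at 7 dpa (log2 difference -1.04, SE 0.23, adjusted p = 0.0223, limma). Neither pair of groups overlapped. With the library set as a covariate neither was called, with adjusted p of 0.179 for klf3 and 0.353 for zfand5a. Of the 100 genes none was called by limma without 7 dpa replicate 1, with 11 at an unadjusted p under 0.05, 1 was called without any single 14 dpa library, and 4 without 0 dpa replicate 1. The share of all genes called in these fits is not given here, so the counts are no result about the 100 genes.

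The step from 14 to 21 dpa lies within library set B, and the 5 of the 100 genes called in it all fell, against 0.738% of all genes that fell. slc16a12b, of the monocarboxylate transporter family, had 18.96, 19.8 and 21.8 TPM at 21 dpa, against 58.5, 50.5 and 43.1 TPM at 14 dpa (log2 difference -1.28, SE 0.18, adjusted p = 0.00297, limma), and was called whichever library was left out. ccl19b had 25.4, 22.8 and 24.3 TPM at 21 dpa, against 83.1, 93.5 and 95.8 TPM at 14 dpa (log2 difference -1.87, SE 0.37, adjusted p = 0.0192, limma). The 3 libraries at 21 dpa were alike and far below those at 14 dpa.

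zgc:152670 had 1.76, 1.38 and 1.44 TPM at 21 dpa, against 4.15, 4.77 and 9.55 TPM at 14 dpa (log2 difference -1.43, SE 0.30, adjusted p = 0.0266, limma). impdh1a, an IMP dehydrogenase gene of purine synthesis, had 1.18, 1.27 and 1.60 TPM at 21 dpa, against 3.47, 4.07 and 4.30 TPM at 14 dpa (log2 difference -1.07, SE 0.22, adjusted p = 0.0202, limma). stk35, a kinase gene, had 23.8, 21.6 and 38.01 TPM at 21 dpa, against 50.4, 60.6 and 61.4 TPM at 14 dpa (log2 difference -1.06, SE 0.22, adjusted p = 0.0239, limma). In all 5 genes the 21 dpa libraries lay below the 14 dpa libraries. In a fit within set B alone, 10 of the 100 were called, either direction, against 2.09% of genes. The count was 2, 1 and 3 without 14 dpa replicates 1, 2 and 3, 1, 1 and 3 without 21 dpa replicates 1, 2 and 3, and 8 without 0 dpa replicate 1. For these omissions the share of all genes called is not given here, so their counts are no result about the 100 genes. Over all 100 genes, 77 had a lower mean at 21 than at 14 dpa, against 50.7% of all genes tested.

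Between 21 and 4 dpa 14 genes fell and 1 rose, against 11.9% and 10.3% of all genes. The fall was greatest in hif1al, a gene of the hypoxia-inducible factor alpha family, with 8.38, 11.7 and 9.36 TPM at 21 dpa, against 33.5, 26.7 and 39.1 TPM at 4 dpa (log2 difference -1.65, SE 0.26, adjusted p = 0.000482, limma). higd1a, a hypoxia-inducible domain gene of the inner mitochondrial membrane, had 84.8, 62.5 and 104 TPM at 21 dpa, against 266, 246 and 165 TPM at 4 dpa (log2 difference -1.42, SE 0.38, adjusted p = 0.015, limma), and srd5a2a had 121, 100.2 and 118 TPM at 21 dpa, against 318, 331 and 258 TPM at 4 dpa (log2 difference -1.41, SE 0.29, adjusted p = 0.00305, limma). In all 3 genes the groups did not overlap. rpl38 was the gene that rose, with 2671, 3325 and 3249 TPM at 21 dpa, against 1276, 1618 and 1009 TPM at 4 dpa (log2 difference 1.26, SE 0.42, adjusted p = 0.045, limma), and it kept its call in 6 of the 15 omissions of a library. These times lie in different library sets, and with the set as a covariate limma called none of the 100, with 8 at an unadjusted p under 0.05 and an adjusted p of 0.0664 for hif1al. The count was 7 without 4 dpa replicate 1 and 9 without 21 dpa replicate 2. For these fits, that with the covariate included, the share of all genes called is not given here. Their counts are no result about the 100 genes.

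**Figure D4:**
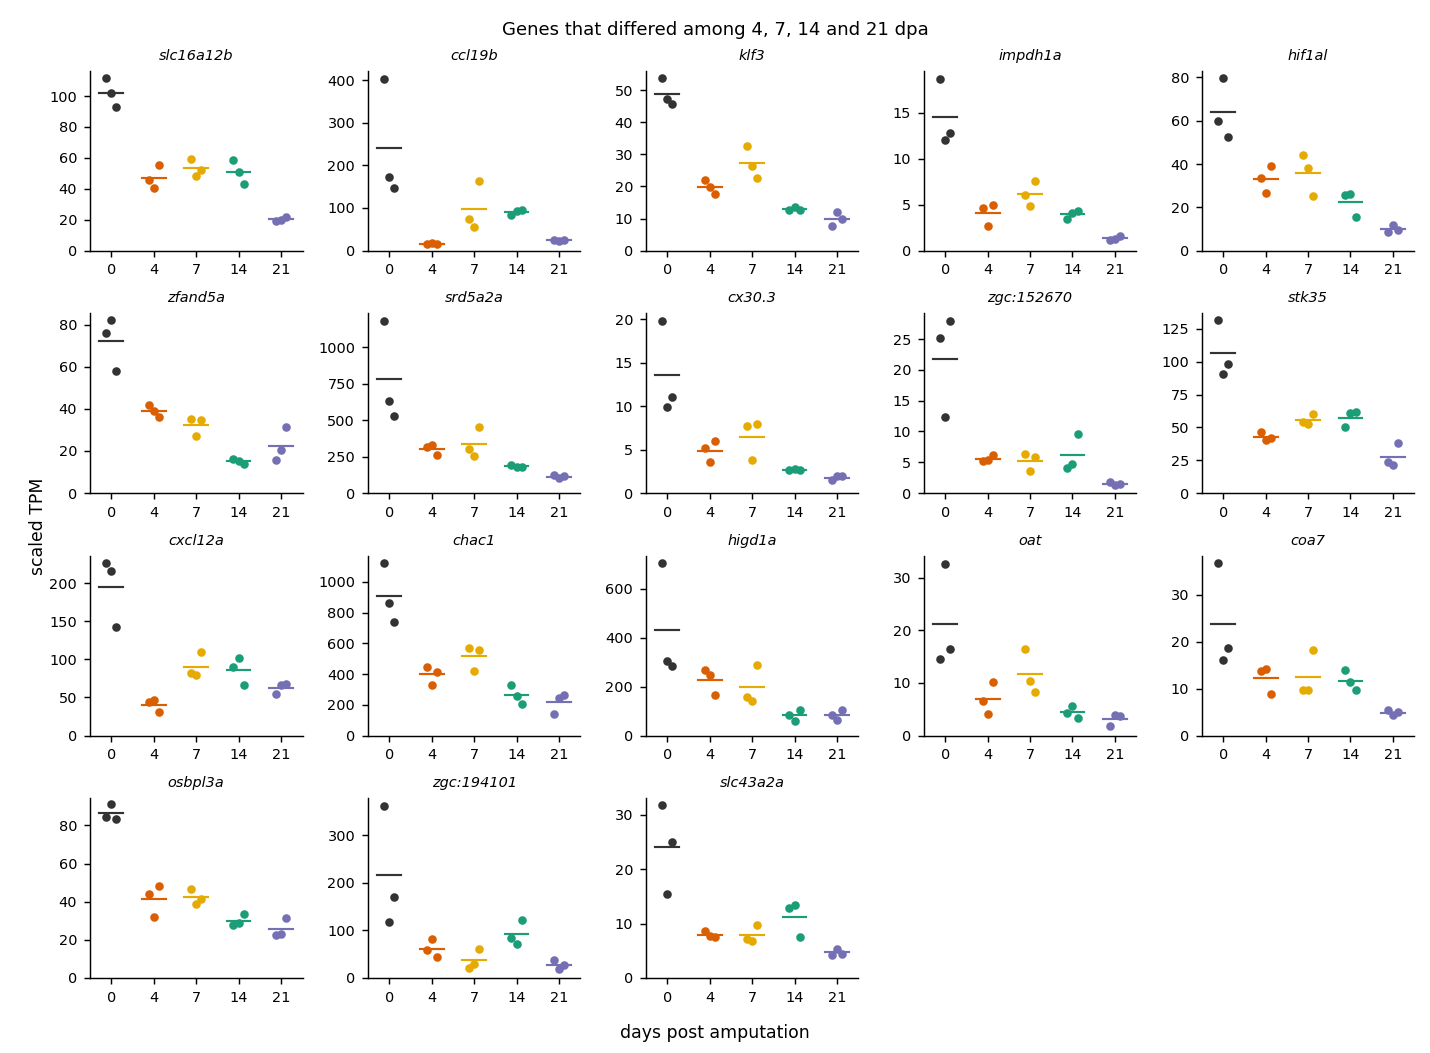
Scaled TPM of the 18 genes called by the F test among the later times (vertical axes from 0) against days post amputation, with 1 point per library and a bar at the mean of 3. The lowest bar is at 21 dpa for slc16a12b, hif1al, impdh1a and stk35 among others, and ccl19b and cxcl12a have theirs at 4 dpa.

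Leaving 0 dpa replicate 1 out of the rule kept 61 of the 100 genes among the top 100, and all 100 kept a positive score, with a median of 0.66. Because the other libraries were those used in the choice, positive scores were largely set in advance. Of the 51 genes without overlap 47 were kept, and of the 49 with overlap 14. Overlap was read from the same libraries as the score, so that split was largely set in advance as well. By role, 8 of 9 chemokine and cytokine genes, 4 of 5 antigen presentation genes, 7 of 9 epithelial genes, 3 of 4 retinoid and steroid genes and all 4 transcription and chromatin genes were kept. So were 2 of 9 genes of mitochondrial respiration and none of 4 ribosomal genes. The chemokine and cytokine genes still stood in 0 dpa replicate 1 at a median of 3.12 times the mean of the other 0 dpa libraries. That median was 2.39 in the genes of mitochondrial respiration and 2.90 in the ribosomal genes. With all libraries, scores were 0.90 to 1.66 in the chemokine and cytokine genes, 0.81 to 1.09 in those of mitochondrial respiration and 0.78 to 1.07 in the ribosomal genes. spink2.1 scored 1.38 without that library, against 1.95 with it, and zgc:152670 scored 1.53, against 1.67. ccl19a.2 scored 0.18, against 0.90, and atp5mea 0.29, against 0.94.

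**Figure D5:**
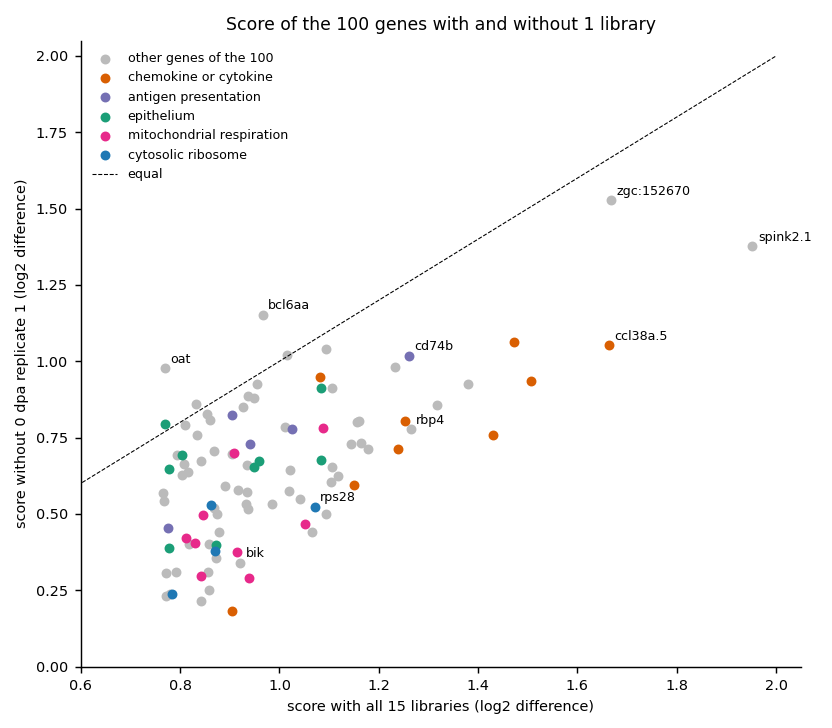
Score of each of the 100 genes without 0 dpa replicate 1 (vertical axis, log2 difference) against its score with all 15 libraries (horizontal axis, log2 difference), coloured by role group. Most points lie below the dashed line of equality, all lie above 0, and bcl6aa and oat lie above the line with 1.15 and 0.98 without that library.

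The rule was also applied to the libraries of 2 replicate numbers and its 100 genes were read in the libraries of the number left out, which the choice had not used. The replicate number is only a name, so this is a description. In the replicate 1 libraries, 83 of the 100 genes so chosen were higher at 0 dpa than at all 4 later times, against 43.5% of all genes eligible there. In the replicate 2 libraries it was 54 against 25.1%, and in the replicate 3 libraries 64 against 15.0%. The 83 was read against 0 dpa replicate 1, a library high in short genes as a class. There 786 other genes with a span under 5000 bp had a median of 0.89, in log2 units relative to the mean of all libraries. The later library that was highest for most of the 100 genes described here is a replicate 3 library, so the replicate 1 libraries lack it. The part of these libraries in the 3 counts was not tested. The median score in the libraries left out was 0.80, 0.07 and 0.23 for replicates 1, 2 and 3, against -0.13, -0.33 and -0.41 over all eligible genes. Of the genes so chosen, 54, 67 and 71 were among the 100 described here.

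RefSeq's gene table for the GRCz12tu assembly held 98 of the 100 genes, 95 of them protein coding and 3 lncRNA. The table's assembly differs from the danRer11 build in the submitters' processing notes, so it was used for names, gene types, spans and neighbours and no coordinates are given. The genes were short: their median span from first to last base was 5692 bp, against 13243 bp over the genes with a mean of at least 5 TPM. Spans under 5000 bp were found in 43.9%, against 17.2%. Span differed with overlap, with a median of 9719.5 bp in the genes without overlap and 3865.5 bp in those with it. Genes with overlap also had the greater excess in 0 dpa replicate 1, a median of 2.61 times against 1.505 times. The choice of the 100 genes and the overlap were both read from the 0 dpa libraries, so that difference was largely set in advance. Short genes as a class were high in 0 dpa replicate 1: 786 other genes with a span under 5000 bp had a median of 0.89 there, in log2 units relative to the mean of all libraries, against -0.09 and 0.02 in 0 dpa replicates 2 and 3. The part of span in the scores was not tested.

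Some of the 100 genes are neighbours. ccl38.6, ccl38a.5 and ccl38a.4 follow each other with no protein-coding gene between, and so do ccl19a.1 and ccl19a.2. rassf6 and si:busm1-57f23.1 have 1 protein-coding gene between them, zgc:194101 and si:ch211-217k17.10 have 2, and anxa1a and zfand5a have 5. How reads that fit more than 1 gene of a family were divided is not given in the sources used here and no sequences were compared, so values of single ccl38 and ccl19a genes are uncertain. Of the 100 genes 25 carry a systematic name in the deposited table, and 8 of those did not overlap, beside 51 of all 100 genes.

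Most of the 18 lists held no gene of the 100, and these lists differed from each other in direction. Shares of all genes tested that rose and fell were 8.04% and 7.39% at 4 dpa and 2.53% and 2.47% at 7 dpa. They were 4.60% and 5.64% at 14 dpa and 6.32% and 7.38% at 21 dpa. Of 16 osteoblast and osteocyte genes tested, 9 rose at 4 dpa and 9 at 7 dpa, as did 8 at 14 dpa and 7 at 21 dpa, and none fell. Of 32 glucocorticoid and clock genes, 1 rose and 13 fell at 4 dpa, 1 rose at 7 dpa, 5 rose and 1 fell at 14 dpa, and 3 rose and 9 fell at 21 dpa. Of 9 complement and acute phase genes, 1 rose and 2 fell at 4 dpa, with 1 that fell at 7 dpa and 2 that fell at each of 14 and 21 dpa. Over all 18 lists, 277 genes that are not among the 100 were tested, and 35 rose and 52 fell at 4 dpa, 28 rose and 8 fell at 7 dpa, 39 rose and 20 fell at 14 dpa, and 47 rose and 35 fell at 21 dpa, each relative to 0 dpa. With the library set as a covariate 1 was called at 14 dpa and 4 at 21 dpa, and within set A 56 were called at 4 dpa, against 9.85% of all genes, and 5 at 7 dpa. The count at 4 dpa was 56 without 4 dpa replicate 1, at 7 dpa 22 and 19 without 7 dpa replicates 1 and 2, at 14 dpa 33, 28 and 23 without 0 dpa replicate 1 and 14 dpa replicates 1 and 2, and at 21 dpa 54 without 21 dpa replicate 2. Where no share of all genes stands beside a count from an alternative fit, the count is no result about the list genes.

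At the edge of the choice the scores were close. The last 3 genes inside were itga6b with 0.7687, tpd52l1 with 0.7679 and si:ch211-244b2.3 with 0.7647. The first 3 outside were zgc:112255 with 0.7644, si:ch211-276k2.1 with 0.7639 and ncoa4 with 0.7638. The groups of tpd52l1 overlapped, with 2.83 to 9.10 TPM in the 12 later libraries, against 8.22 to 15.6 TPM at 0 dpa, whereas si:ch211-244b2.3 did not overlap, with 5.81 to 16.2 TPM in the 12 later libraries, against 21.2 to 34.3 TPM at 0 dpa.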

How the data were processed

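Bulk RNA-seq of 15 libraries, 3 at each of 5 times, was analysed from 1 table of TPM values that the authors deposited, with 14836 genes. TPM is corrected for transcript length, each column sums to 1000000, and it keeps no depth, so no counting interval is given. Per the submitters' processing notes, Trim Galore 0.6.7, cutadapt 3.5, Salmon 1.4.0 and the build danRer11 were used. How transcripts were summed to genes, and which annotation was used, is not given in the sources used here. Per the labels' protocols, cDNA was amplified by PCR and cut with Tn5.

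Values were scaled by the median of ratios over 10774 genes above 0 in every library and taken to log2(TPM + 1). TPM in the text means these scaled values unless called deposited. Folds of low genes are understated on that scale. The 100 genes were ranked as the report states, and because that choice used every difference from 0 dpa, those are given without a test. Differences among later times, and differences from 0 dpa of other genes on 18 lists, were tested two-sided with limma 3.58.1 in R 4.3.3. The model had a mean per time point, an intensity trend and Benjamini-Hochberg adjustment over the 10163 genes with at least 1 TPM in at least 3 libraries, and genes with an adjusted p under 0.05 were called. The fit was tested on simulated data. The members, lists, roles and tests were chosen with earlier results of these data known.

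Genes are named by rule: the 15 largest scores, members on a list, the largest called changes between later times, both sides of the cutoff and members sharing a name stem. Others with a known role were added after their values were seen. Library sets were formed by average linkage on the number of near-equal ratios of values that libraries share, cut at a number of sets fixed in advance. Pairs of libraries shared a median of 74 (24 to 688) within and 18 (12 to 35) between sets. The replicates are separate pools per the design text. Replicate numbers did not pair the libraries: over 30 same-numbered pairs the correlation of deviations from the group means ran from -0.63 to 0.65, with 12 over 0.1. Over 60 pairs of unlike number it ran from -0.72 to 0.82, with 26 over 0.1. Alternatives covered scaling, pseudocount, filters, library weights, sets, omissions and a replicate block.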

Additional observations from a re-analysis of the deposited data

How the results depend on the processing

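All 100 genes kept a positive score under every alternative of the rule that was run, but the list itself changed. The 100 were chosen for the largest scores in these same libraries, so positive scores were largely set in advance. Of the 100 genes, 66 were kept with group medians and 61 to 97 when 1 library was left out, the fewest without 0 dpa replicate 1. With deposited TPM 73 were kept, with a mean of at least 1 TPM 82, of at least 10 TPM 85, and with pseudocounts of 0.1 and 5 92 and 82. The deposited TPM shift the median of all genes by up to 0.31 (14 against 0 dpa) and -0.40 (21 against 14 dpa) in log2 units, against at most 0.04 in size after scaling.

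Counts of called genes moved with the model. In the main fit 18% of the members were called among the later times, against 20.1% of all genes tested. For most fits in this and the next paragraph, library weights included, the share of all genes called is not given here. Their counts are therefore no result about the members. In deposited TPM the members called were 8 among the later times, 1 at 7 against 4 dpa and 0 at 14 against 7 dpa (6 at an unadjusted p under 0.05), and the other list genes called were 31, 8, 17 and 25 at 4, 7, 14 and 21 against 0 dpa. With the library set as a covariate the members called were 5 among the later times, 0 at 14 against 7 dpa (9 unadjusted) and 0 at 21 against 4 dpa, and the list genes 19, 1 and 4 at 7, 14 and 21 dpa. With library weights the members called were 46 among the later times, 25 at 7 against 4, 20 at 14 against 7, 10 at 21 against 14 and 32 at 21 against 4 dpa, and the list genes 185, 116 and 128 at 4, 7 and 14 dpa. Fits within a library set, chosen after seeing the data, called 1 member at 7 against 4 dpa and 56 and 5 list genes at 4 and 7 dpa in set A, and 10 members at 21 against 14 dpa in set B.

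With 1 library left out the members called were 13 to 21 among the later times, 1 to 2 at 7 against 4, 0 to 4 at 14 against 7, 1 to 8 at 21 against 14 and 7 to 20 at 21 against 4 dpa, and the list genes 56 to 95, 19 to 51, 23 to 66 and 54 to 91 at 4, 7, 14 and 21 dpa. With a replicate block the members called were 17 among the later times, 2, 2, 5 and 12 at 7 against 4, 14 against 7, 21 against 14 and 21 against 4 dpa, and the list genes 79, 29, 57 and 73. For 6 of the 15 libraries, the mean correlation with libraries of other times was highest for their own replicate number, in deviations from the group means. For single called genes 107 of 535 alternative fits lost the call. The cause of these changes was not tested. The p-values rest on 3 pools a time, TPM keeps no depth, and no limit on weakly expressed genes can be given.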
